A study of Mus musculus with 24 samples.

Results

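LGSC spheres are cell clusters that grow from single cells of the adult mouse lacrimal gland (LG) in Matrigel, and the sample described here is the 1 library of spheres at passage 10 (P10), taken on day 7 of culture. It was picked by its label, and it was 1 of 21 libraries analysed. The P10 spheres and the spheres of passage 2 (P2) set beside them came from C57BL/6 mice of 6 to 8 weeks of age, and both were cultured for 7 days in serum-free medium with EGF, FGF10, Wnt3A and the ROCK inhibitor Y-27632. The P2 day 7 group had 3 libraries. The labels give neither the number of animals behind the P10 library nor their sex, and the other libraries analysed were P2 spheres at days 5, 10 and 14, adult LG and embryonic LG at E17.5 and E19.5. Neither passage 6 nor passage 20 was analysed here.

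The LG secretes the watery part of the tear film. Its acini make tear proteins, its ducts are lined by luminal and basal cells, and contractile myoepithelial cells wrap the acini. Krt14 and Krt5 are partner keratins that form the filaments of basal cells, and the transcription factor Trp63 maintains basal cells of stratified and glandular epithelia. The paper states that myoepithelial cells of the adult gland express Krt14 too, so Krt14 alone does not tell them from basal cells. Krt19 marks ductal cells, Ltf encodes the iron-binding tear protein lactotransferrin, and Aqp5 is the water channel of acinar cells.

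Each value is an FPKM, the fragments of a gene scaled to its length and to a library size, and 1 read stands for 1 fragment. Reads were recovered from the steps between low FPKM values, and they totalled 25181804 in the P10 library and 7646408 to 7834010 in the P2 day 7 libraries. The library size implied by the FPKM of 1 read differed from these totals. The totals were 1.06 times that size in P10 and 0.846 to 0.978 times in P2 day 7. In adult LG replicates 1 and 2 they were 2.67 and 2.57 times that size, so a given share of reads has a higher FPKM there. In the P10 library 12624 of 52747 listed genes had at least 1 FPKM, 5338 had at least 10 FPKM and 437 had at least 100 FPKM. Of 21896 protein-coding genes 10758 had at least 1 FPKM (49.1%), 5046 had at least 10 FPKM (23%), and their median was 0.838 FPKM. With 1 library there is no replicate, so the intervals given for P10 cover counting error only, and no test was made.

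Krt14 (chromosome 11, 100203162 to 100207548, minus strand, GRCm38) was the most abundant of all genes in the P10 library, with 7065 FPKM (95% exact Poisson interval 7040 to 7091) on 295388 reads. Krt5 was the third, with 4931 FPKM, behind the mitochondrial gene mt-Co1 with 5494 FPKM. The other 3 markers lay lower in the order. Ltf had 407 FPKM (interval 402 to 411), rank 85. Krt19 had 124 FPKM (interval 121 to 128), rank 348. Trp63 had 42.9 FPKM (interval 42.0 to 43.9), rank 1234. All 5 markers were among the 5338 genes with at least 10 FPKM.

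**Figure D1:**
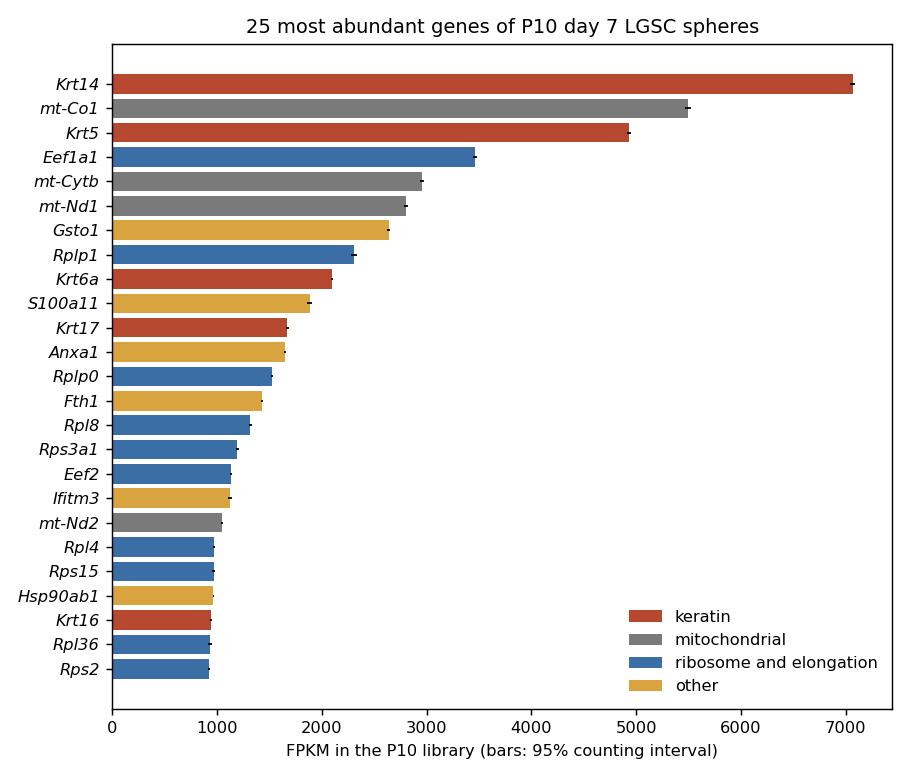
Horizontal bars give the FPKM of the 25 most abundant genes of the P10 library, with 95% counting intervals as thin black lines and gene classes as colours. Krt14 leads with 7065 FPKM, and 5 of the 25 genes are keratins.

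The 25 most abundant genes held 5 keratins (Krt14, Krt5, Krt6a, Krt17 and Krt16), 4 mitochondrial genes and 10 genes of the ribosome or of translation elongation, led by Eef1a1 with 3461 FPKM. The other 6 were Gsto1, a glutathione transferase, with 2638 FPKM, S100a11 with 1884 FPKM, the membrane-binding annexin Anxa1 with 1643 FPKM, the ferritin chain Fth1 with 1428 FPKM, Ifitm3 with 1122 FPKM and the chaperone Hsp90ab1 with 964 FPKM. Keratin genes together took 5.96% of the summed FPKM, the cytosolic ribosomal protein genes 10.5% and the mitochondrial chromosome 4.69%. Of the 1000 most abundant genes 935 were protein-coding and 51 were processed pseudogenes, copies whose reads cannot be told apart from those of their parent genes by these values.

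Promoter sequences are shown for the markers and for the 3 most abundant genes of squamous differentiation (Krt6a, Krt16 and Sprr1a), as far as the RefSeq promoter table (GRCm38.p6) has a window whose start lies within 100 bases of the GENCODE start. That held for 2 of the 5 markers, Krt5 and Ltf, and, of the squamous genes, for Sprr1a, a small proline-rich protein of the cornified envelope with 771 FPKM, but not for Krt6a and Krt16. The 250 bases before the start are printed 5′ to 3′ in the direction of the gene, at chr15:101712906-101713155 (minus strand) for Krt5, chr9:111019042-111019291 (plus strand) for Ltf and chr3:92485882-92486131 (minus strand) for Sprr1a. Capitals mark TATAAA, searched on both strands, and TGANTCA, the site of AP-1 factors, which reads the same on both strands.
Krt5: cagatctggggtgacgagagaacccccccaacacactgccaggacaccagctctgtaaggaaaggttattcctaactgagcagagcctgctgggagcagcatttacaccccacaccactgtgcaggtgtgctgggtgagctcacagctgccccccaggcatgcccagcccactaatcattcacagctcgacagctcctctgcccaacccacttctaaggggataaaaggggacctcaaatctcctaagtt
Ltf: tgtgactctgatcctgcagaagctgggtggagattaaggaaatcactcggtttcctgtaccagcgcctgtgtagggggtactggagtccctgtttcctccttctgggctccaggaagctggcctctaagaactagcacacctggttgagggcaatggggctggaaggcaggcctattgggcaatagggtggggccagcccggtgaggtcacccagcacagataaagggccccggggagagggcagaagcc
Sprr1a: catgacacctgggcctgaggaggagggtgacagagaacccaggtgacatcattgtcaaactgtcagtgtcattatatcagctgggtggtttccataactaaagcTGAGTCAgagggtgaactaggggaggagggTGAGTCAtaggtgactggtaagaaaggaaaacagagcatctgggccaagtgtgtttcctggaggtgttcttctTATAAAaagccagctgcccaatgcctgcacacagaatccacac
Sprr1a held 2 TGANTCA matches and 1 TATAAA match, and Krt5 and Ltf held neither in this window. Over all 11978 matched promoters TATAAA was found in 10.9% and TGANTCA in 5.9%. Among the 46 matched promoters of the 100 most abundant protein-coding genes these shares were 17.4% and 15.2%, and among the 2872 of genes at 0 in the P10 library 20.2% and 9.09%. A match gives the letters only and is no evidence of binding.

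Of 53 keratin genes 23 had at least 1 FPKM in the P10 library, beside 49.1% of all protein-coding genes. At least 100 FPKM was reached by 11 of the 53, beside 1.85% of all protein-coding genes. The basal pair Krt14 and Krt5 was followed by the keratins of wounded or fast-growing epithelium, Krt6a with 2094 FPKM, Krt17 with 1668 FPKM, Krt16 with 939 FPKM and Krt6b with 743 FPKM. The simple-epithelium pair Krt8 and Krt18 had 414 and 306 FPKM. Krt13, a keratin of the suprabasal layers of moist stratified epithelia, had 333 FPKM, and Krt15, another basal keratin, had 216 FPKM. The keratins of the suprabasal epidermis lay far lower, Krt1 with 55.5 FPKM and Krt10 with 9.85 FPKM. Krt6a and Krt6b, and Krt14, Krt16 and Krt17, are close paralogs, and how the authors' counting split shared reads among them is not given in the sources used here.

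All 12 genes of the basal list had at least 10 FPKM, 7 had at least 100 FPKM, and their median was 162 FPKM, beside 0.838 FPKM over all protein-coding genes. Apart from the keratins, the most abundant were components of the hemidesmosome, which anchors basal cells to the basement membrane. Col17a1 had 435 FPKM, Itgb4 had 199 FPKM and its integrin partner Itga6 had 125 FPKM. The laminin chains Lamb3 and Lama3, parts of the ligand of that integrin, had 43.2 and 42.6 FPKM. Of the 18 genes of basement membrane and integrins 16 had at least 1 FPKM, led by Itgb1 with 207 FPKM, Itga3 with 174 FPKM and the tetraspanin Cd151 with 66 FPKM, while Nid1 was at 0.0545 FPKM.

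Of the 20 genes of epithelial adhesion and junctions 18 had at least 10 FPKM. Perp, a desmosomal membrane protein, had 877 FPKM, Cldn4, a tight junction claudin, had 489 FPKM and the desmosomal plaque protein Dsp had 359 FPKM. The epithelial surface protein Epcam had 261 FPKM, and E-cadherin (Cdh1) had 169 FPKM. The other 2 were also claudins, Cldn1 with 7.78 FPKM and Cldn3 with 0.200 FPKM on 6 reads (interval 0.0735 to 0.436 FPKM).

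**Figure D2:**
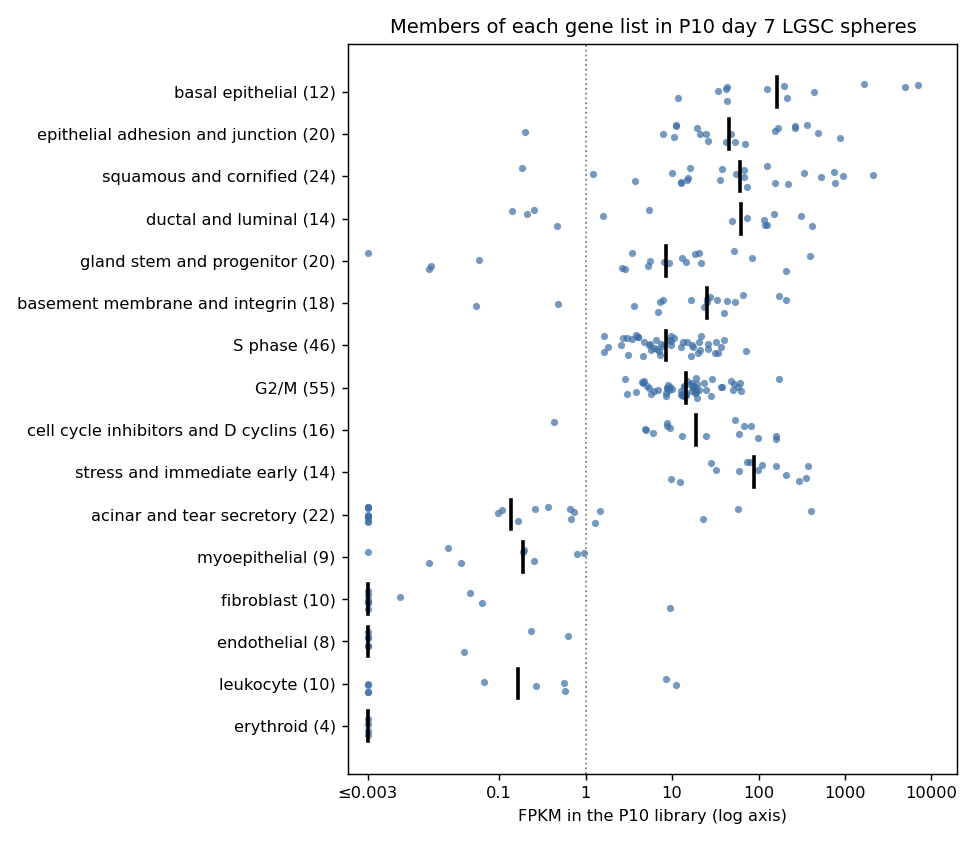
Each point is the FPKM of 1 gene in the P10 library on a log axis, each row is a gene list with its number of genes, and the black bar is the median of the list. Values at or under 0.003 FPKM are drawn at the left edge, and the dotted line marks 1 FPKM. All 12 basal genes lie above 10 FPKM, while all 9 myoepithelial and all 8 endothelial genes lie under 1 FPKM.

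Genes of squamous differentiation and cornification were present at high levels beside the basal genes, with 20 of 24 at 10 FPKM or more and a median of 61.8 FPKM. The stress keratins Krt6a and Krt16 and the small proline-rich Sprr1a were the 3 most abundant, and Sfn (stratifin) had 526 FPKM. Of the cornified envelope, Sprr1b had 219 FPKM, Ivl (involucrin) 36 FPKM and Lor (loricrin) 15.5 FPKM. The late genes Tgm3 and Flg (filaggrin), at 1.23 and 0.183 FPKM, were the lowest of the list.

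Of the 20 gland stem and progenitor genes 16 had at least 1 FPKM and 9 had at least 10 FPKM. The 3 most abundant were Ly6a, which encodes the surface protein Sca-1, with 393 FPKM, the hyaluronan receptor Cd44 with 205 FPKM and the retinaldehyde dehydrogenase Aldh1a3 with 83 FPKM. The transcription factor Sox9 had 51.8 FPKM. Nestin (Nes), an intermediate filament of progenitor cells, was low, with 3.46 FPKM at rank 9219, on 528 reads. Sox2 had 2.84 FPKM and Prom1 had 2.61 FPKM. The Wnt-linked stem cell receptor Lgr5 had 0.0164 FPKM on 4 reads, whereas the related receptors Lgr4 and Lgr6 had 21.6 and 9.10 FPKM. Sox10 rested on about 1 read. Kit, a receptor of progenitors in secretory glands, had no read, which allows up to 0.0142 FPKM at 3 reads. The paper cites lacrimal progenitors that were sorted as dimly positive for Kit and negative for Sca-1, so a high Ly6a does not mark those cells.

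The ductal and luminal list was divided. Krt8, Krt18, the secreted protein Wfdc2 (149 FPKM), Krt19, the Notch target Hes1 (119 FPKM) and Klf5 (114 FPKM) had over 100 FPKM. The apical mucin Muc1, Muc20, the claudin Cldn10 and the chloride channel Cftr had 0.141 to 0.466 FPKM, all 4 under 1 FPKM.

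Of the 22 acinar and tear secretory genes 5 had at least 1 FPKM and 9 were at 0. Ltf led them, followed by Lcn2 (lipocalin 2, a siderophore-binding protein of secretions) with 57.7 FPKM and Xbp1, a transcription factor of secretory cells, with 22.9 FPKM. Aqp5 had 1.46 FPKM at rank 11649. Bhlha15, a transcription factor of mature acinar cells, had 0.108 FPKM on 9 reads. The secretoglobin Scgb2b2 and the mucin-like Mucl2, with up to 871600 and 807362 FPKM in adult LG, had no read in P10, which allows up to 0.215 and 0.121 FPKM at 3 reads. These adult values came from replicates 1 and 2, where FPKM is high for the reads recovered.

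All 46 S phase genes and all 55 G2/M genes had at least 1 FPKM. In S phase, the sliding clamp Pcna had 71.2 FPKM, the ribonucleotide reductase subunit Rrm2 had 39.6 FPKM and the helicase subunit Mcm4 had 37.2 FPKM, and the median of the list was 8.55 FPKM. In G2/M, where the median was 14.7 FPKM, the 3 most abundant were Tubb4b with 175 FPKM, Rangap1 with 61.9 FPKM and Jpt1 with 60.8 FPKM. Mki67, the gene of the proliferation antigen Ki67, had 19.51 FPKM at rank 2962, Top2a had 28.4 FPKM and Ccnb1 had 19.2 FPKM.

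Among the D cyclins and inhibitors of the cell cycle, 15 of 16 genes had at least 1 FPKM. Cyclin D1 (Ccnd1) had 160 FPKM and Cdkn1a, which encodes p21, had 159 FPKM. Cdkn2a had 98.3 FPKM and Cdkn2b, its neighbour on the chromosome, had 59.1 FPKM. The gene-level value of Cdkn2a does not separate its alternative transcripts. Cdkn1c was the lowest, with 0.433 FPKM on 21 reads.

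Levels differed among the receptor genes for the 3 growth factors of the medium. Egfr had 21.5 FPKM, Erbb2 20.3 FPKM and Erbb3 29.1 FPKM, and Erbb4 was at 0. The ligand Areg (amphiregulin) was the most abundant gene of the EGF list, with 71.3 FPKM. Fgfr2, whose epithelial isoform binds FGF10, had 5.79 FPKM and Fgfr1 had 19.4 FPKM, while Fgf10 itself was at 0. In the FGF list the heparan sulfate carrier Sdc1 led with 358 FPKM, followed by Fgfbp1 with 120 FPKM. Of the Wnt genes 23 of 32 had at least 1 FPKM. The most abundant were the receptor Fzd6 with 57.1 FPKM, the ligand Wnt10a with 37 FPKM and the receptor Fzd7 with 27.4 FPKM. The Wnt target Axin2 had 1.72 FPKM, and the Wnt effector Lef1 was at 0. The kinases inhibited by Y-27632, Rock1 and Rock2, had 14.4 and 12.3 FPKM.

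All 14 stress and immediate early genes had at least 1 FPKM. The heat shock gene Hspa1b had 370 FPKM, the AP-1 subunit Jun had 354 FPKM and the small heat shock protein Hspb1 had 295 FPKM. Further AP-1 genes were Junb with 108 FPKM, Atf3 with 74.1 FPKM and Fos with 59.3 FPKM.

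Markers of other cell types of the gland were at or near 0. None of the 9 myoepithelial genes reached 1 FPKM, the highest being smooth muscle actin (Acta2) with 0.968 FPKM. None of the 8 endothelial genes did, and the VEGF receptor Kdr had no read. Of the 10 fibroblast genes Vim alone, with 9.58 FPKM, passed 1 FPKM, and Fap, Col1a2, Col3a1, Lum, Pdgfrb and Thy1 had no read. Of the 10 leukocyte genes Lyn, with 11 FPKM, and Cd68, with 8.43 FPKM, passed 1 FPKM, and both are expressed outside leukocytes too, while Ptprc (CD45) had 1 read. The 4 haemoglobin genes were at 0. Mbp with 7.71 FPKM and Tubb3 with 2.70 FPKM led the glial and neuronal list, Fabp4 with 1.28 FPKM the adipocyte list and Mylpf with 1.11 FPKM the skeletal muscle list.

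Before the P10 values are set beside those of P2, the tables themselves differ. The P10 table lists 111 loci without an Ensembl identifier, and the table type of the 20 other libraries lists 11226. The 52636 Ensembl identifiers are the same in both. In the P2 day 7 libraries many genes that every cell uses were listed at or near 0. Of 73 cytosolic ribosomal protein genes with at least 100 FPKM in P10, 40 had a P2 day 7 mean under 10% of the P10 level, 2 lay between 10% and 50%, and 31 were at 50% or more, with a median of 3.38 times the P10 level. In 37 of the 73 no library of the 20 reached 10% of the P10 level. Rpl8 was at 1317 FPKM in P10 and at 0 in all 20 libraries. Gapdh was low in P10 too, with 3.0 FPKM, and at 0 in all 20. The 5046 protein-coding genes with at least 10 FPKM in P10 split in the same way, with 2606 (51.6%) under 10% of the P10 level and 1671 (33.1%) at or above it. A P10 value above the P2 values therefore cannot be read as a change. For values below them the scale matters, since the 2030 genes with at least 10 FPKM in all 4 libraries had a median P2 day 7 mean of 2.44 times the P10 level. As the 3.0 FPKM of Gapdh shows, the P10 table too can list a gene that every cell uses at a low level, so a single low P10 value cannot be told apart from such a listing. Of 673 genes with at least 100 FPKM in the P2 day 7 mean, 5 were under 10% of it in P10. The cause of the values near 0 was not tested.

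**Figure D3:**
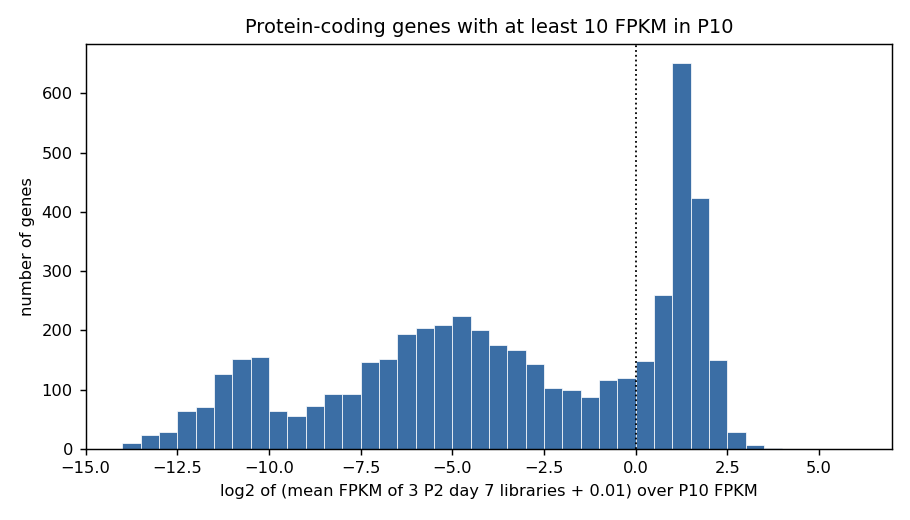
The histogram counts protein-coding genes with at least 10 FPKM in P10 by the log2 ratio of their P2 day 7 mean, plus 0.01 FPKM, to their P10 FPKM. The genes fall into a narrow peak to the right of the dotted line at equal levels and a broad group to its left, which holds 2606 genes under 10% of the P10 level.

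By value, 4472 of 13026 genes (34.3%) had over 4 times the FPKM of the highest P2 day 7 library, and 655 (5.03%) had under 25% of that of the lowest. The latter count depended on the scale and the settings. It was 987 with values rescaled to 1000000 per library, 215 with P10 multiplied by the median ratio of 2.01, 207 with a pseudocount of 1 FPKM and 993 without P2 day 7 replicate 2. A further 1416 of 12547 genes with at least 1 FPKM in P10 (11.3%) were at 0 in all 3 P2 day 7 libraries, and 1098 (8.75%) were at 0 in all 20. A further restriction kept the 5129 genes with at least 10 FPKM in a library outside P2 day 7 and P10. Of these, 113 were over 4-fold above (2.2%) and 407 were over 4-fold below (7.94%). Reaching that level does not show that a gene is counted in full. Krt14 reached it with at most 15.7 FPKM in the 17 other libraries, beside 7065 FPKM in P10.

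Of the markers, Krt14 had 6.51, 17.8 and 9.53 FPKM in the P2 day 7 libraries and at most 15.7 FPKM in the 17 others. Krt5 had 0.395, 2.16 and 0.510 FPKM, Trp63 had 0.322, 0.427 and 0.186 FPKM, and Krt19 had 0.349, 0.0689 and 0.241 FPKM. Ltf had 0.0626, 0.0371 and 0.129 FPKM, and at most 6.65 FPKM elsewhere, in adult LG replicate 3. The low values of all 5 markers were shared by all 20 libraries, with at most 17.8 FPKM of Krt14, 5.52 FPKM of Krt5, 0.750 FPKM of Trp63 and 1.03 FPKM of Krt19 in any of them, so the distance from P10 cannot be told apart from the difference between the tables.

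**Figure D4:**
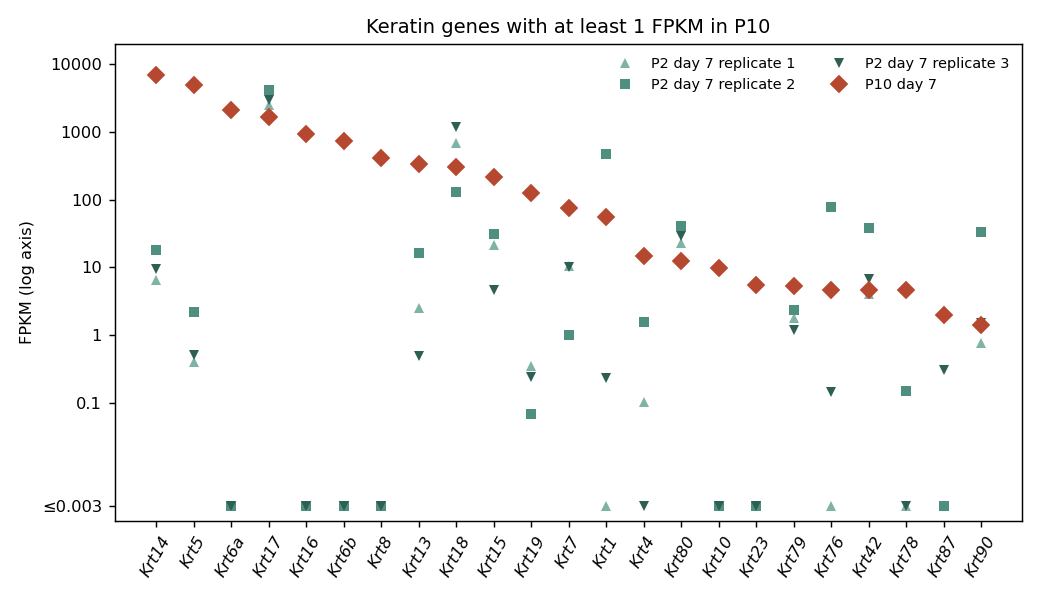
Keratin genes with at least 1 FPKM in P10 are ordered by their P10 FPKM (red diamonds), beside the 3 P2 day 7 libraries (green symbols), on a log axis with values at or under 0.003 FPKM drawn at the lower edge. Krt17, Krt18 and Krt80 are within 4-fold of the P10 level in the P2 libraries, while Krt6a, Krt16, Krt6b and Krt8 are at 0 in all 3.

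Krt17 was abundant in both kinds of table, with 1668 FPKM in P10 and 2519, 4123 and 3018 FPKM in P2 day 7. Krt18 had 306 FPKM in P10 and 689, 130 and 1195 FPKM in P2 day 7, so that P10 lay inside the range of the P2 libraries. Of the 12 basal genes 11 were over 4-fold above every P2 library and none below, against 34.3% above among all genes tested, but only 3 of the 12 had at least 10 FPKM in any of the 17 other libraries. The median log2 ratio of P10 over P2 day 7, on log2(FPKM + 1), was 5.11 for the basal list, beside 0.35 over all genes. Neither background is matched for level, since all 12 basal genes had at least 10 FPKM in P10. Of all protein-coding genes with at least 10 FPKM in P10, 51.6% had a P2 day 7 mean under 10% of the P10 level.

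Among genes at 0 in all 3 P2 day 7 libraries the 8 most abundant in P10 were mt-Co1, mt-Cytb with 2957 FPKM, Krt6a, Rpl8, Rps3a1 with 1193 FPKM, Ifitm3, Krt16 and Rpl36 with 935 FPKM. In the 20 other libraries these 8 genes had at most 0.118 FPKM, that of Rps3a1. Among protein-coding genes with at least 20 FPKM in P10 and above 0 in all 3 P2 day 7 libraries, the 12 largest ratios were of the same kind. Led by the desaturase Scd2 (246 FPKM in P10, at most 0.0594 FPKM in P2 day 7) and the chromatin protein Ptma (914 FPKM, at most 0.229 FPKM), they included Ltf, Krt5, Ccnd1, Hnrnpa1, Pdia3, Dsc3, Son, Tnks1bp1, Elf1 and Spin1, and no gene of the 12 had over 10 FPKM in any of the 17 other libraries.

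The comparison was repeated for genes whose P10 level was reached in 1 of the 17 other libraries. Of 1124 such protein-coding genes with at least 20 FPKM in P10, 6 were over 4-fold above every P2 day 7 library (0.534%), a set chosen after the values were seen. Genes whose P10 level exceeded all 17 others are left out by this choice, so the share does not measure how many genes were above. Krt13 had 333 FPKM in P10 and 2.55, 16.5 and 0.491 FPKM in P2 day 7, with up to 863 FPKM in another library. Krt15 had 216 FPKM and 21.8, 31.4 and 4.68 FPKM, with up to 719 FPKM in another. Psca, a surface protein of epithelial cells, had 420 FPKM and 0.754, 28.7 and 0.779 FPKM, with up to 569 FPKM in another. The remaining 3, Gadd45g, Ssr4 and Xbp1, had 22.9 to 38.3 FPKM in P10 and ratios to the P2 day 7 mean of 5.93 to 6.72. For Krt13, Krt15 and Psca the highest of the 17 libraries was P2 day 14 replicate 2, and of the P2 day 7 libraries replicate 2 was the nearest to P10.

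In the other direction, the 12 smallest ratios were taken among protein-coding genes with a P2 day 7 mean of at least 20 FPKM and above 0 in all 4 libraries. The smallest was that of Cldn3, with 0.200 FPKM in P10 and 260.5, 45.5 and 440.7 FPKM in P2 day 7, a mean 1242 times the P10 level. Igfbp4, which binds insulin-like growth factors, had 1.62 FPKM in P10 and 59.1, 42.3 and 76.0 FPKM in P2 day 7. Scara3 had 0.666 FPKM and 109, 7.00 and 46.1 FPKM, and the thrombin receptor F2r had 1.60 FPKM and 55.3, 11.5 and 42.1 FPKM. Kcnk12, Plekhb1, Cited4, Cidea and Syngr1 also lay below all 3 P2 libraries, with P2 means 12.9 to 43.6 times the P10 level. With P10 multiplied by 2.01, Cldn3, Igfbp4, Scara3, Kcnk12 and Cidea were still over 4-fold below every P2 library, and F2r, Cited4 and Syngr1 were not. In Igfbp4, Scara3, Plekhb1, F2r, Cited4 and Syngr1, P2 replicate 2 was the nearest to P10, as it was in Cldn3. In Kcnk12 and Cidea the nearest was P2 replicate 1.

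**Figure D5:**
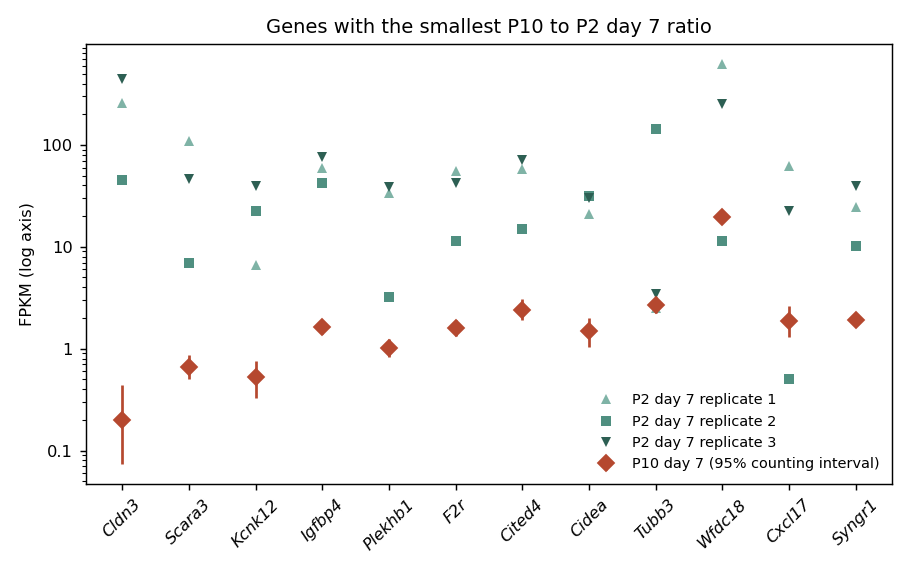
The 12 genes with the smallest P10 to P2 day 7 ratio, among protein-coding genes with a P2 mean of at least 20 FPKM and above 0 in all 4 libraries, are shown with their P10 FPKM (red diamonds with 95% counting intervals) and the 3 P2 day 7 libraries (green symbols) on a log axis. In 9 genes P10 lies below all 3 P2 libraries, in 8 of them by over 4-fold, while Tubb3, Wfdc18 and Cxcl17 have a P2 library at or below P10.

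For the other 3 genes of that set the P2 libraries were split. Wfdc18 had 19.4 FPKM in P10 and 623, 11.3 and 253 FPKM in P2 day 7. The chemokine Cxcl17 had 1.88 FPKM and 62.6, 0.504 and 22.4 FPKM. The neuronal tubulin Tubb3 had 2.70 FPKM and 2.49, 143 and 3.47 FPKM, so that its ratio rested on replicate 2 alone. Kit, at 0 in P10, had 5.84, 0.674 and 1.93 FPKM in P2 day 7. Of the Wnt receptors, Fzd1 had 12.3 FPKM in P10 and 147, 69.9 and 117 FPKM in P2 day 7, and Fzd2 had 6.06 FPKM and 46.3, 43.9 and 46.2 FPKM. These were the 2 of 24 tested Wnt genes over 4-fold below, beside 5.03% of all genes, and with P10 multiplied by 2.01 neither was, at 2.83 and 3.61 times below the lowest P2 library.

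Of the cell cycle genes, Pcna had 71.2 FPKM in P10 and 162, 201 and 147 FPKM in P2 day 7, and Cdc20 had 48.3 FPKM and 106, 230 and 87.2 FPKM. The 2030 genes with at least 10 FPKM in all 4 libraries had a median P2 day 7 mean of 2.44 times the P10 level. Lower P10 values of this size therefore cannot be told apart from the scale of the tables. No gene of the S phase and G2/M lists was over 4-fold below every P2 library. The counts above were 16 of 43 in S phase and 28 of 51 in G2/M, beside 34.3% of all genes tested. That share is not matched to the level of these genes, and Mki67 was at 0 in all 20 other libraries. Cdkn2a had 98.3 FPKM in P10 and 69.4, 60.4 and 74.2 FPKM in P2 day 7, and Cdkn2b had 59.1 FPKM and 261, 222 and 302 FPKM.

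The P2 day 7 libraries also differed among themselves. Replicate 2 had 467 FPKM of Krt1 and 873 FPKM of the squamous gene Krtdap, against at most 0.228 and 5.43 FPKM in replicates 1 and 3, and P10 lay between with 55.5 and 126 FPKM. P10 had 20.8 FPKM of the Y-linked Eif2s3y and 0.0258 FPKM of Xist, the RNA of the inactive X chromosome. P2 replicate 1 had 2.31 and 0.0121 FPKM, while replicates 2 and 3 had no Eif2s3y and 95.6 and 104 FPKM of Xist. The part of these differences in the values above was not tested.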

How the data were processed

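Poly-A RNA libraries were made with the NEBNext Ultra kit and sequenced as paired ends. Per the labels, the submitters' processing notes name CASAVA 1.8, HISAT2 2.0.5, featureCounts 1.5.0-p3 and the build NCBIM37. What the authors deposited for each library was a list of identifiers with 1 number each, taken here as FPKM because of its size and its steps with gene length. How FPKM was computed, and why the P10 table lists other loci, is not given in the sources used here. Passages 6 and 20 and 1 day 5 library were not analysed here.

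Symbols, types, positions and exon lengths came from GENCODE M21 (GRCm38), which held 52489 of the 52747 identifiers. Tables were joined on Ensembl identifiers only. FPKM times exon length, divided by the value of 1 read, gave reads that were whole to within 0.01, up to 1000 reads, for 93.4% of P10 genes and 92.6% to 93.6% in the 20 other libraries; a length that differs from that of the authors gives reads that are not whole. Intervals are exact Poisson limits (95%) on these reads, and 3 reads were taken as the limit of a 0. Without molecular identifiers, both cover counting error only. P10 was set beside P2 day 7 over genes with at least 1 FPKM in P10 or in the P2 mean and above 0 in at least 1 P2 library, and a gene was counted when P10 was over 4-fold above the highest or below the lowest P2 library. Medians of lists used log2(FPKM + 1), which understates the change of low genes. No test was made, since P10 is 1 library.

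The members, the 24 lists (398 entries) and the settings were chosen with earlier results of these data known. Genes were named by a rule: the 25 most abundant, the markers, the 3 most abundant of each list and its members near 0, the 12 largest ratios at 20 FPKM or more in P10 and the 12 smallest at 20 FPKM or more in the P2 mean, both among protein-coding genes above 0 in all 4 libraries, and the 8 most abundant at 0 in P2 day 7. Families outside the lists, further members and the 6 genes reached by another library were chosen after their values were seen. Read recovery and fold counts were tested on simulated data. The simulated libraries shared the same gene list and varied by counting error only, so they do not cover the difference between the tables. Python 3.11.15, numpy 2.4.6, pandas 2.3.3, scipy 1.17.1 and matplotlib 3.10.9 were used. The alternatives were other scalings, filters, pseudocounts and folds, each P2 replicate left out, and ranks on other bases.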

Additional observations from a re-analysis of the deposited data

How the results depend on the processing

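No paired analysis was possible because the P10 group is 1 library, so that P10 and P2 share fewer than 2 replicate numbers, and no test was made. The count of genes over 4-fold above every P2 day 7 library (4472) stayed within 1.5 times, from 3390 with a pseudocount of 1 FPKM to 5298 with median-ratio scaling. It was 113 (2.2%) over genes with at least 10 FPKM in another of the 20 libraries. It was 6 (0.534%) over protein-coding genes with at least 20 FPKM whose level another library reached. Both sets were chosen after seeing the data. The latter set leaves out every gene highest in P10, so its share cannot be weighed against the 34.3% of all genes tested. Without 1 P2 replicate the count above over all genes tested was 4456 to 4506. The count below every P2 library (655) was 987 with values rescaled to 1000000 per library, 215 with median-ratio scaling, 331 with a filter at 5 FPKM, 1431 with no filter, 207 with a pseudocount of 1 FPKM, 3311 at a fold of 2 and 407 over genes with at least 10 FPKM in another library. Without 1 P2 replicate it was 777 to 993. Median-ratio scaling multiplied P10 by 2.01.

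The median log2 ratio of P10 over P2 day 7, on log2(FPKM + 1), was 0.35 over all genes, 5.11 for basal genes, 2.86 for adhesion and junction genes, 2.57 for G2/M and 0.42 for S phase. With values rescaled to 1000000 per library these were 0.49, 5.81, 3.48, 3.30 and 0.53, with median-ratio scaling 1.17, 6.11, 3.82, 3.48 and 1.27, and with a pseudocount of 0.1 FPKM 0.55, 6.16, 3.52, 3.57 and 0.54. With no filter the median over all genes was 0.0, and neither that nor the filtered median is matched to the level of the lists. Without 1 P2 replicate the medians were 0.34 to 0.43 over all genes, 5.02 to 5.18 for basal genes, 2.81 to 2.93 for adhesion genes, 2.44 to 2.62 for G2/M and 0.31 to 0.48 for S phase. Of 126 values for the 18 other lists 70 moved by less than the spread over P2 replicates and 5 changed sign or went to 0. The rest include unchanged values, since the acinar and leukocyte medians stayed the same without any P2 replicate and so had no spread. The myoepithelial, fibroblast, skeletal muscle and adipocyte medians each rest on 1 gene passing the filter. The causes were not tested.

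By reads rather than FPKM, Krt14 kept rank 1, Krt5 was at rank 2, Ltf at 39, Trp63 at 444 and Krt19 at 847, since longer genes gain reads. Among protein-coding genes Ltf was at 82, Krt19 at 321 and Trp63 at 1154. Depth limits values near 0: 3 reads of the P10 library stand for 0.0142 FPKM of Kit and 0.215 FPKM of Scgb2b2. These limits cover counting error only. The low Gapdh value shows that P10 can list a gene that every cell uses at a low level.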

Other observations

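Chemokine and interleukin genes were grouped here by family after their values were seen. Of 46 chemokine genes 15, and of 47 interleukin genes 14, had at least 1 FPKM, beside 49.1% of all protein-coding genes. Ppbp, a neutrophil-attracting chemokine best known from platelets, had 589 FPKM at rank 44, and Cxcl5, of the same kind, had 316 FPKM. In P2 day 7 Ppbp had 29.7, 52.5 and 14.1 FPKM and Cxcl5 had 380, 46.2 and 169 FPKM. Cxcl1, Cxcl2 and the membrane-bound Cxcl16 had 48.6, 42.8 and 40.1 FPKM. The alarmin Il33 led the 47 interleukin genes with 113 FPKM.

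Of 18 Notch receptors, ligands and targets 9 had at least 1 FPKM, close to the share of 49.1% of all protein-coding genes. The target Hes1 led them with 119 FPKM. The ligands Jag1 and Jag2 had 82.5 and 52.3 FPKM, and the receptors Notch1, Notch3 and Notch2 had 49.3, 28.8 and 10.4 FPKM. The target Hey1 was low, with 1.21 FPKM.

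Among S100 genes, calcium-binding proteins of which many lie in the epidermal differentiation complex, 12 of 17 had at least 1 FPKM. The share over all protein-coding genes was 49.1%. After S100a11 came S100a6 with 914 FPKM, S100a10 with 394 FPKM and S100a14 with 362 FPKM. S100a1 had 15.03 FPKM in P10 and 196, 47.5 and 176 FPKM in P2 day 7. The lowest of these P2 values was less than 4-fold above P10, before any scaling between the tables. Of 14 small proline-rich genes 12 had at least 1 FPKM, and the near-identical Sprr2a1, Sprr2a2 and Sprr2a3, among which reads cannot be told apart, had 146, 85.1 and 37.4 FPKM. Of 11 aquaporins Aqp3, the water and glycerol channel of basal epithelium, had 374 FPKM, and Aqp5 was the only other with at least 1 FPKM. In P2 day 7 Aqp3 had 304, 1910 and 153 FPKM.

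Transcription factors of position gave a sparse pattern. All 39 Hox genes were under 1 FPKM and 38 of them at 0. Of 36 genes of the Pitx, Barx, Dlx, Msx, Lhx, Tfap2 and Pax families 8 had at least 1 FPKM, beside 49.1% of protein-coding genes. Pitx1 had 36.0 FPKM, Tfap2a 18.2 FPKM and Barx2, a factor of lacrimal gland development, 14.0 FPKM. Pax6, the eye field factor, had 5.29 FPKM in P10 and 8.72, 4.71 and 5.84 FPKM in P2 day 7. Klf4 and Klf5, factors of stratified epithelium, had 110.8 and 114 FPKM, and Sox15 had 40.3 FPKM.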
